A study of Mus musculus with 15 samples.

Results

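The interferon response genes are a list of 37 genes that cells switch on after interferon binds its receptors, and 33 of them were measured among the 22180 genes of the array. A member was measured where at least 1 probe set of the array (a transcript cluster) is assigned to that gene alone, and where a gene had several, the transcript cluster with the highest mean over the 15 arrays was used. Dtx3l, Oas1a, Ifi44 and Gbp2 have no transcript cluster of their own and were left out. The genes were measured in lung nodules of the D2.HAN mammary cancer series, in which D2.OR cells mostly stay dormant in the lung and D2.A1 cells grow out. Cells were inoculated into the tail vein of female BALB/c mice, aged 4 to 5 weeks in the methods, after culture on plastic (unprimed, 2D) or after 3 to 5 days on Cultrex basement membrane extract (primed, 3D). Nodules were cut by laser from stained sections of fixed lung in paraffin, and RNA from each was hybridized to 1 Affymetrix Mouse Gene 2.0 ST array. The question put to these arrays was which genes accompany escape from dormancy. The unprimed groups were D2.A1 2D spindle (3 nodules), D2.A1 2D epithelial (3 nodules) and D2.OR 2D (2 nodules, numbered 2 and 3). The primed groups were D2.A1 3D spindle (2 nodules), D2.A1 3D epithelial (2 nodules) and D2.OR 3D (3 nodules). Spindle and epithelial name the shape of the tumor cells by which nodules were chosen, and the labels call every D2.OR nodule spindle, so line and morphology differ together wherever D2.OR is set against epithelial D2.A1 nodules. Each line is 1 culture-derived cancer line of BALB/c origin, the methods describe inoculated D2.HAN cells that carry firefly luciferase, and the BALB/c host has its own immune cells.

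Type I interferons, made by most cells on sensing foreign nucleic acid, act through the receptor chains Ifnar1 and Ifnar2 and the factor ISGF3, which contains Stat2 and Irf9 and binds the interferon-stimulated response element (ISRE). Interferon gamma, made by T and NK cells, acts through Ifngr1 and Ifngr2 and the gamma-activated site (GAS) in promoters, and it induces Irf1 and many large GTPases of cell-autonomous immunity. In tumors these genes can be read out from cancer cells, macrophages, lymphocytes, vessels and surrounding lung alike, since most nucleated cells respond to interferon.

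Promoters of members with and without each element are shown because these elements are where the factors above act. RefSeq promoter windows of mouse build GRCm38.p6, which run from 250 bases before to 50 bases after a gene's start, were available for 24 of the 33 members. ISRE was searched as GAAANNGAAA on both strands, which reads TTTCNNTTTC where the match lies on the other strand, and GAS as TTCNNNGAA, which is its own reverse complement. An ISRE match was present in 13 of the 24 members (54.2%) and in 3.99% of the 27025 genes with a window. A GAS match was present in 8 of 24 (33.3%) and in 9.55% of all genes. Both were found in 5 members, Bst2, Gbp5, Gbp7, Igtp and Irgm2, and at least 2 ISRE matches in 6 members against 0.266% of all genes. A match describes letters only, and whether a factor bound there was not measured. In the windows below, capitals mark ISRE and GAS matches and all other bases are in lower case.
Isg15 (chr4:156200769-156201068, minus strand, 3 ISRE matches that overlap each other, starting 78, 72 and 66 bases before the start): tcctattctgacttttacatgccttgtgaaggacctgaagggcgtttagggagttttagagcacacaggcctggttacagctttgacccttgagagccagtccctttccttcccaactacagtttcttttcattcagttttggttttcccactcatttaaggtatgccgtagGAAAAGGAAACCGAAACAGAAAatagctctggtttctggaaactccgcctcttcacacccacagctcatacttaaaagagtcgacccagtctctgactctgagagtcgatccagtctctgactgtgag
Ifit1 (chr19:34640639-34640938, plus strand, 2 ISRE matches, at 104 and 85 bases before the start): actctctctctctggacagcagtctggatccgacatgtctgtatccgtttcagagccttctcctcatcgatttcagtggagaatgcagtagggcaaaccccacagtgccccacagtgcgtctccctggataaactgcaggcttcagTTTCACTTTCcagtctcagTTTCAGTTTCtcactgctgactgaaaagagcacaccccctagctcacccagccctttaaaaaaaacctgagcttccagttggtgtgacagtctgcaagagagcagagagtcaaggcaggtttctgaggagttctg
Ifit3 (chr19:34583279-34583578, plus strand, 2 ISRE matches, at 156 and 122 bases before the start): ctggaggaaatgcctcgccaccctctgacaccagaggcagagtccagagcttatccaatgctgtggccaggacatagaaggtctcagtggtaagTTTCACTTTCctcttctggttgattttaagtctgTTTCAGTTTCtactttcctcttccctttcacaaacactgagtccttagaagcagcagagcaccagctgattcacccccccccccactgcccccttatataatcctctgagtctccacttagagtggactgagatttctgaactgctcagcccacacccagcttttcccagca
Irf1 (chr11:53769764-53770063, plus strand, the first of its windows, 1 GAS match at 90 bases before the start and no ISRE match): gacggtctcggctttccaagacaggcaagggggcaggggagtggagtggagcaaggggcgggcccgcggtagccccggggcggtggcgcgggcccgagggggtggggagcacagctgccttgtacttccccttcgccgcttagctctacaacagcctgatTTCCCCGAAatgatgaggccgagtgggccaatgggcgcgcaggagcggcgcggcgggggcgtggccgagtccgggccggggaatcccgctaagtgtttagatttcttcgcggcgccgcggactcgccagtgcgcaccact
Gbp7 (chr3:142530086-142530385, plus strand, 2 GAS matches at 106 and 87 bases and 1 ISRE match at 53 bases before the start): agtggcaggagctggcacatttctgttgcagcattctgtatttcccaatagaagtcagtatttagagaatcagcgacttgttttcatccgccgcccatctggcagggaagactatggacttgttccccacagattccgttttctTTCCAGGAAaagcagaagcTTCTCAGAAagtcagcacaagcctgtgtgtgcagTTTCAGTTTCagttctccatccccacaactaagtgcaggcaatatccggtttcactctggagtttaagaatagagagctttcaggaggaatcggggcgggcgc
Igtp (chr11:58199306-58199605, plus strand, 1 GAS match at 45 bases and 1 ISRE match at 34 bases before the start): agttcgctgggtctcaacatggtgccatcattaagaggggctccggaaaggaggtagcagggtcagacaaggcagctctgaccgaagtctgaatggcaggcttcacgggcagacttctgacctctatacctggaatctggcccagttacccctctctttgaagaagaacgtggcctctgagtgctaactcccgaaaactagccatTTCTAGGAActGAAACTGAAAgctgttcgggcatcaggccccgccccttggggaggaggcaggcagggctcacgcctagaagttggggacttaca

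All levels are the deposited log2 values after Robust Multi-array Average (RMA), a normalization that scales the arrays to each other, so a difference of 1 is a 2-fold difference in signal. Array medians lay between 1.81 and 1.91, and levels of different genes cannot be compared because probes differ in brightness. The members had means of 1.62 (Mx1) to 5.21 (Ifit3) with a median of 2.58, against 1.94 for the median gene. Of the 33 members, 24 had a mean under 3, and 11 stayed under 3 in every nodule. No detection calls were used, so small differences between such weak signals are uncertain. Members of the Ifit, Gbp, Oasl, Mx and Irgm families have close relatives, and probes can pick up RNA of a relative. Nodule 2 of D2.OR 3D stood apart from its group. The mean of 8 heart muscle genes, a list chosen after their values were seen, was 4.79 in it and 1.87 to 2.50 in the other 14 nodules, and limma's array weight, which falls as an array strays from its group, was 0.325 against 3.11 and 1.12 for nodules 1 and 3. Calls, median differences and counts of members that do not overlap are given with and without it. Nodules 1 and 3 both lay above it for 30 of 33 members (37% of all genes). For these members, leaving it out raises the D2.OR 3D mean and narrows the spread of that group by construction. Calls and p-values without it thus show how far the results rest on that nodule and are not separate tests. The legends give 3 mice per group. The labels do not say which mouse a nodule came from, and some of the D2.A1 nodules must share a mouse. Where they do, p-values of comparisons between lines or cultures are too small. For spindle against epithelial nodules a shared mouse would be an unused pairing, and p-values could be too large instead.

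The interferon response genes had their highest levels in nodules 1 and 3 of D2.OR 3D. The mean of the 33 members was 3.51 in nodule 1 and 3.45 in nodule 3, but 2.28 in nodule 2 of the same group. Unprimed D2.OR gave 2.28 in nodule 2 and 2.72 in nodule 3, and the 10 D2.A1 nodules ran from 2.30 to 2.71 with a median of 2.49. Nodule 2 of D2.OR 3D thus lay just below the D2.A1 range, and its group overlapped every other group. For 29 of 33 members the highest of the 6 group means was that of D2.OR 3D, which held the highest group mean of 13.8% of all genes. The exceptions were Irf1 and Irf9, highest in D2.OR 2D, Mx2, highest in D2.A1 2D epithelial, and Parp12, highest in D2.A1 3D epithelial. With nodule 2 of D2.OR 3D left out, this held for 32 of 33 members, all but Mx2 (15.6% of all genes). Nodule 3 of D2.OR 3D held the highest of 15 values for 15 members (6.5% of all genes) and nodule 1 for 12 members (4.12%). Both of these nodules lay above all 10 D2.A1 nodules for 22 of 33 members, compared with 7.48% of all genes. As these are bulk samples of nodules, fewer cells that express a gene and less RNA of it per cell cannot be told apart.

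**Figure D1:**
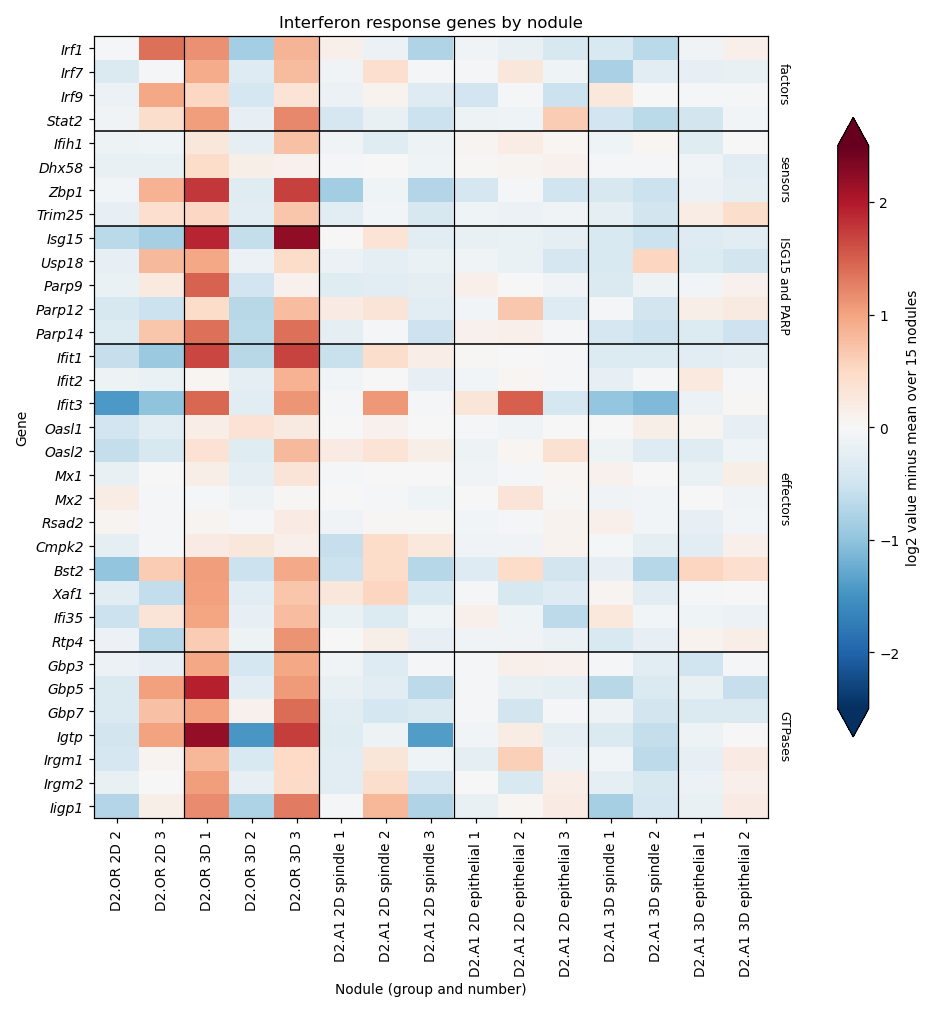
Each row is 1 of the 33 members, grouped by role, and each column is 1 nodule, with color giving the log2 value minus the gene's mean over the 15 nodules. Nodules 1 and 3 of D2.OR 3D were red for most members (means of 3.51 and 3.45 over the list). The mean of nodule 2 (2.28) lay just below the D2.A1 range (2.30 to 2.71). Nodule 2 lay within the D2.A1 range for 20 of 33 members (71.2% of all genes).

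Members differed widely between the nodules of D2.OR 3D. The median member spanned 1.25 on the log2 scale between its lowest and highest D2.OR 3D nodule, and 24 members spanned more than 1. In the other 5 groups the median span was 0.18 to 0.41, with 8 members spanning more than 1 in D2.OR 2D, 6 in D2.A1 2D spindle, 2 in D2.A1 2D epithelial and 0 in either D2.A1 3D group. Nodules 1 and 3 of D2.OR 3D both exceeded nodule 2 by at least 1 for 14 of 33 members, which held for 3.95% of all genes. Groups of 2 nodules have less room to spread than groups of 3, so these spans describe the groups only. Spans were not computed over all genes, so they do not show whether the members spread more than other genes.

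Among the transcription factors, Irf1, a factor strongly induced by interferon gamma, read 3.77 and 5.17 in nodules 2 and 3 of D2.OR 2D. It read 4.94, 2.95 and 4.64 in nodules 1, 2 and 3 of D2.OR 3D and 3.05 to 3.92 (median 3.63) in the D2.A1 nodules. Thus 3 of the 5 D2.OR nodules exceeded every D2.A1 nodule and the other 2 did not. Irf7, which drives transcription of the type I interferon genes themselves, read 2.58 and 2.90 in D2.OR 2D, 3.85, 2.61 and 3.73 in D2.OR 3D and 2.12 to 3.36 (median 2.84) in D2.A1. It followed the pattern of the list, with D2.OR 3D nodules 1 and 3 above all others. Stat2, a subunit of ISGF3, reached 3.98 and 4.14 in the same 2 nodules and 2.74 in nodule 2, against 2.27 to 3.58 in D2.A1. Irf9, the subunit of ISGF3 that contacts DNA, was highest in nodule 3 of D2.OR 2D at 3.52 and stood at 3.06, 2.10 and 2.89 in D2.OR 3D.

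Of the 4 sensors and their regulators, Zbp1 varied most. Zbp1 binds Z-form nucleic acid and can start necroptosis. It read 4.85, 2.77 and 4.78 in D2.OR 3D, 3.00 and 3.94 in D2.OR 2D and 2.22 to 3.04 (median 2.66) in D2.A1. Again nodule 2 of D2.OR 3D, and here nodule 2 of D2.OR 2D, lay within the D2.A1 range. Ifih1 (MDA5), a sensor of long duplex RNA, was weak everywhere, at 2.02, 1.51 and 2.47 in D2.OR 3D and 1.44 to 1.93 in D2.A1. Dhx58 (LGP2), a relative of the RNA sensors that lacks their signaling domains, read 2.65, 2.34 and 2.30 in D2.OR 3D, 2.01 in each D2.OR 2D nodule and 1.91 to 2.30 in D2.A1. It was among the few members whose D2.OR 3D nodule 2 was not below nodule 3. Trim25, a ubiquitin ligase that activates the RNA sensor RIG-I, ranged from 1.78 to 2.93 with its highest value in nodule 3 of D2.OR 3D.

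Isg15, a small ubiquitin-like protein that is secreted and also attached to other proteins, showed the split of D2.OR 3D clearly. It read 4.49 and 4.81 in nodules 1 and 3 of D2.OR 3D and 1.99 in nodule 2. It read 1.91 and 1.75 in D2.OR 2D, below all 10 D2.A1 nodules, which ran from 2.04 to 2.93 with a median of 2.34. Usp18, which removes Isg15 from proteins and shuts off the type I receptor, read 3.44, 2.33 and 2.95 in D2.OR 3D and 2.27 and 3.29 in D2.OR 2D. Usp18 thus did not follow Isg15, since nodule 3 of D2.OR 2D was high for Usp18 and lowest of all nodules for Isg15. The ADP-ribosyltransferase Parp14, known for its part in macrophage signaling, read 4.85, 2.81 and 4.86 in D2.OR 3D, 3.14 and 4.17 in D2.OR 2D and 2.93 to 3.60 in D2.A1. Parp9, a partner of the ubiquitin ligase Dtx3l, read 4.13, 2.18 and 2.77 in D2.OR 3D, so only nodule 1 was above the D2.A1 range of 2.30 to 2.79. Parp12, a stress-responsive relative, read 3.04, 1.88 and 3.35 in D2.OR 3D and 2.13 to 3.25 in D2.A1.

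Among the 13 antiviral effectors, Ifit3, an RNA-binding partner of Ifit1, read 6.65, 4.94 and 6.31 in D2.OR 3D and 3.77 and 4.21 in D2.OR 2D. In D2.A1 it ran from 4.11 to 6.69 with a median of 5.18, so the highest D2.A1 nodule (epithelial 2D nodule 2) lay slightly above the primed D2.OR nodules. Ifit1, which binds the capped ends of foreign RNA, read 4.30, 1.95 and 4.32 in D2.OR 3D, 2.06 and 1.71 in D2.OR 2D and 2.07 to 3.08 in D2.A1. Nodule 2 of D2.OR 3D and both D2.OR 2D nodules were the 3 lowest of all 15 for Ifit1. Rtp4, a chaperone of cell-surface receptors that is also induced by interferon, read 4.06, 3.29 and 4.54 in D2.OR 3D, 3.27 and 2.71 in D2.OR 2D and 3.05 to 3.58 in D2.A1. Bst2 (tetherin), which holds budding virus at the cell surface, read 4.06, 2.47 and 3.96 in D2.OR 3D, 2.04 and 3.65 in D2.OR 2D and 2.30 to 3.55 in D2.A1. Xaf1, an antagonist of the apoptosis inhibitor Xiap, read 4.03, 2.75 and 3.70 in D2.OR 3D and 2.60 to 3.54 in D2.A1. Ifi35, an interferon-induced leucine zipper protein, read 3.84, 2.65 and 3.62 in D2.OR 3D and 2.20 to 3.12 in D2.A1. These effectors shared the split of D2.OR 3D into 2 high nodules and 1 low nodule.

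Other effectors were weak or did not show that split. Oasl1, which in mouse cells restrains translation of Irf7, read 2.43, 2.63 and 2.48 in D2.OR 3D, 1.78 and 2.00 in D2.OR 2D and 2.05 to 2.41 in D2.A1. For Oasl1 the D2.OR 2D nodules lay below and the D2.OR 3D nodules above all D2.A1 nodules, and nodule 2 of D2.OR 3D held the highest value. Oasl2, another oligoadenylate synthetase-like gene, was weak throughout, at 2.27, 1.61 and 2.72 in D2.OR 3D and 1.32 and 1.52 in D2.OR 2D. Mx1, Mx2 and Rsad2 (viperin) varied least, with spans of 0.57, 0.46 and 0.40 over all 15 nodules and every value under 2.3. Most laboratory mouse strains carry a defective Mx1. Ifit2 (1.66 to 2.74) and the mitochondrial nucleotide kinase Cmpk2 (1.54 to 2.57) were weak in all nodules as well.

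The large GTPases of cell-autonomous immunity contained the widest span of the list. Igtp (Irgm3), which guards vacuoles and lipid droplets against pathogens, read 5.42, 1.76 and 4.94 in D2.OR 3D. It read 2.75 and 4.22 in D2.OR 2D and 1.81 to 3.39 (median 3.03) in D2.A1, so its highest and lowest values of all 15 both came from D2.OR 3D, 3.66 apart. Gbp5, a guanylate-binding protein of inflammasome assembly, read 4.02, 1.80 and 3.15 in D2.OR 3D, 1.71 and 3.10 in D2.OR 2D and 1.38 to 2.05 in D2.A1. Gbp7, a relative of less known function, read 2.95, 2.03 and 3.31 in D2.OR 3D, 1.56 and 2.64 in D2.OR 2D and 1.46 to 1.86 in D2.A1. Gbp7 and Oasl1 were the members whose D2.OR 3D nodules, nodule 2 included, all lay above all 10 D2.A1 nodules. Gbp3, another guanylate-binding protein, read 2.97, 1.56 and 2.97 in D2.OR 3D and 1.49 to 2.13 in D2.A1. Iigp1 (Irga6), which is loaded onto the vacuoles of parasites, read 4.23, 2.27 and 4.35 in D2.OR 3D and 2.21 to 3.88 in D2.A1. Irgm1 and Irgm2, regulators of the other GTPases, peaked in D2.OR 3D nodule 1 at 3.74 and 3.16.

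**Figure D2:**
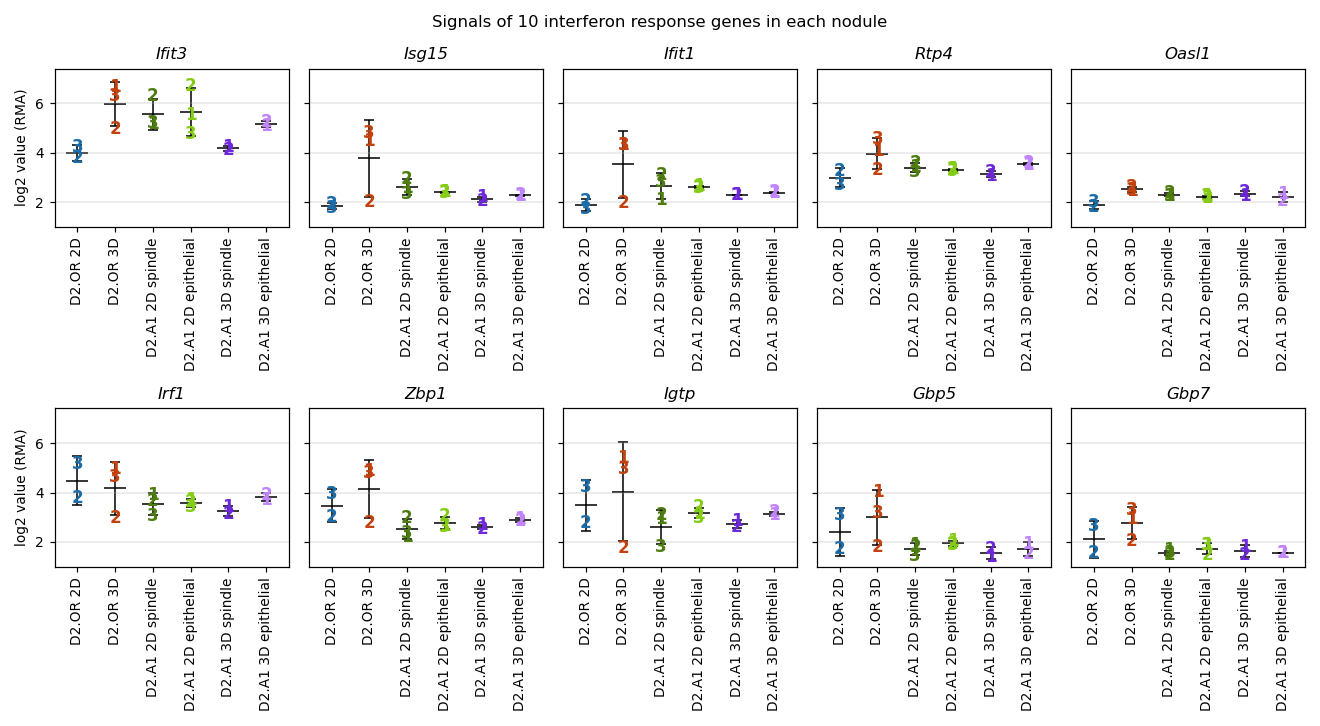
Points give the log2 value of each nodule, drawn as its number, for 10 members in the 6 groups, with the mean and SD as bars (n = 2 or 3). Nodule 2 of D2.OR 3D fell below nodules 1 and 3 for every gene shown but Oasl1 (2.63 against 2.43 and 2.48).

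Priming of the dormant line was tested by D2.OR 3D versus D2.OR 2D. No member passed an adjusted p of 0.05 in limma's moderated test with Benjamini-Hochberg adjustment over all genes, in which 0.0721% of all genes were higher and 0.203% lower. At an unadjusted p of 0.05, 8 of 33 members were higher in D2.OR 3D and 0 lower, compared with 4.15% and 5.24% of all genes. The difference was above 0 for 30 of 33 members (52.3% of all genes) and its median was 0.55, against 0.01 over all genes. Past 3-fold were Ifit3, Isg15 and Ifit1 (0.356% of all genes were as much higher). Ifit3 averaged 5.97 ± 0.90 (SD, n = 3) against 3.99 ± 0.31 (n = 2), a 3.94-fold difference (log2 1.98, SE 0.56, adjusted p = 0.23). Isg15 averaged 3.76 ± 1.54 against 1.83 ± 0.11, a difference of 1.93 (SE 0.59, adjusted p = 0.27), and Ifit1 differed by 1.64 (SE 0.55, adjusted p = 0.34). Rtp4 differed by 0.98 (SE 0.28, adjusted p = 0.23). The lowest adjusted p was that of Oasl1, named after its values were seen, at 0.059 for a difference of 0.62 (SE 0.12). The groups did not overlap for 8 members, all higher in D2.OR 3D (Cmpk2, Dhx58, Ifit3, Isg15, Oasl1, Oasl2, Rtp4 and Xaf1). Of all genes, 10.7% did not overlap and were higher, and 8.76% lower.

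This comparison turned on nodule 2 of D2.OR 3D. Without it, 11 of 33 members rose (1.73% of all genes did) and 0 fell, namely Gbp3, Ifit1, Ifit3, Irf7, Isg15, Oasl1, Oasl2, Parp14, Rtp4, Xaf1 and Zbp1. Isg15 then differed by 2.82, or 7.04-fold (adjusted p = 8.4e-06), Ifit3 by 2.49 (adjusted p = 0.026) and Ifit1 by 2.43 (adjusted p = 0.00036). Rtp4 differed by 1.31 and Oasl1 by 0.56, and the median over the members was 0.99. The nodules then did not overlap for 27 of 33 members, all higher in D2.OR 3D (20.4% of all genes higher and 17.6% lower). With array weights, which count nodule 2 least, 3 members rose (Ifit1, Isg15 and Rtp4), against 0.505% of all genes. Without nodule 1 or nodule 3 of D2.OR 3D no member was called.

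Primed nodules of D2.A1 were then compared with those of D2.OR, a comparison that shares its D2.OR 3D nodules with the one above. The difference was below 0 for all 33 members, whereas 50.6% of all genes were above 0, with a median of -0.54 against 0.00 over all genes. No member passed an adjusted p of 0.05 (0.252% of all genes were lower and 0.194% higher). At an unadjusted p of 0.05, 15 of 33 were lower and 0 higher, compared with 5.87% and 4.34% of all genes. Isg15 averaged 2.20 over the 2 D2.A1 3D groups against 3.76, a difference of -1.57 (SE 0.49, adjusted p = 0.24). Zbp1 differed by -1.39 (SE 0.43, adjusted p = 0.23), Gbp5 by -1.36 (SE 0.43, adjusted p = 0.24) and Ifit3 by -1.30 (SE 0.47, adjusted p = 0.33). The nodules did not overlap for Dhx58, Gbp7 and Oasl1 (4.68% of all genes did not overlap and were lower, and 3.78% higher). Without nodule 2 of D2.OR 3D, 14 of 33 members were called lower (2.08% of all genes): Gbp3, Gbp5, Gbp7, Ifih1, Ifit1, Igtp, Iigp1, Irf7, Isg15, Oasl2, Parp14, Rtp4, Stat2 and Zbp1. Isg15 then differed by -2.45 (adjusted p = 9.1e-06), Igtp by -2.24, Zbp1 by -2.07, Gbp5 by -1.96 and Ifit3, which did not pass, by -1.82. The median was -0.92, and 27 of 33 members did not overlap, all lower in D2.A1 3D (12.9% of all genes lower and 9.92% higher). With array weights 20 members were called lower, against 3.3% of all genes. Leaving out nodule 1 or nodule 3 of D2.OR 3D instead gave no call of a member.

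**Figure D3:**
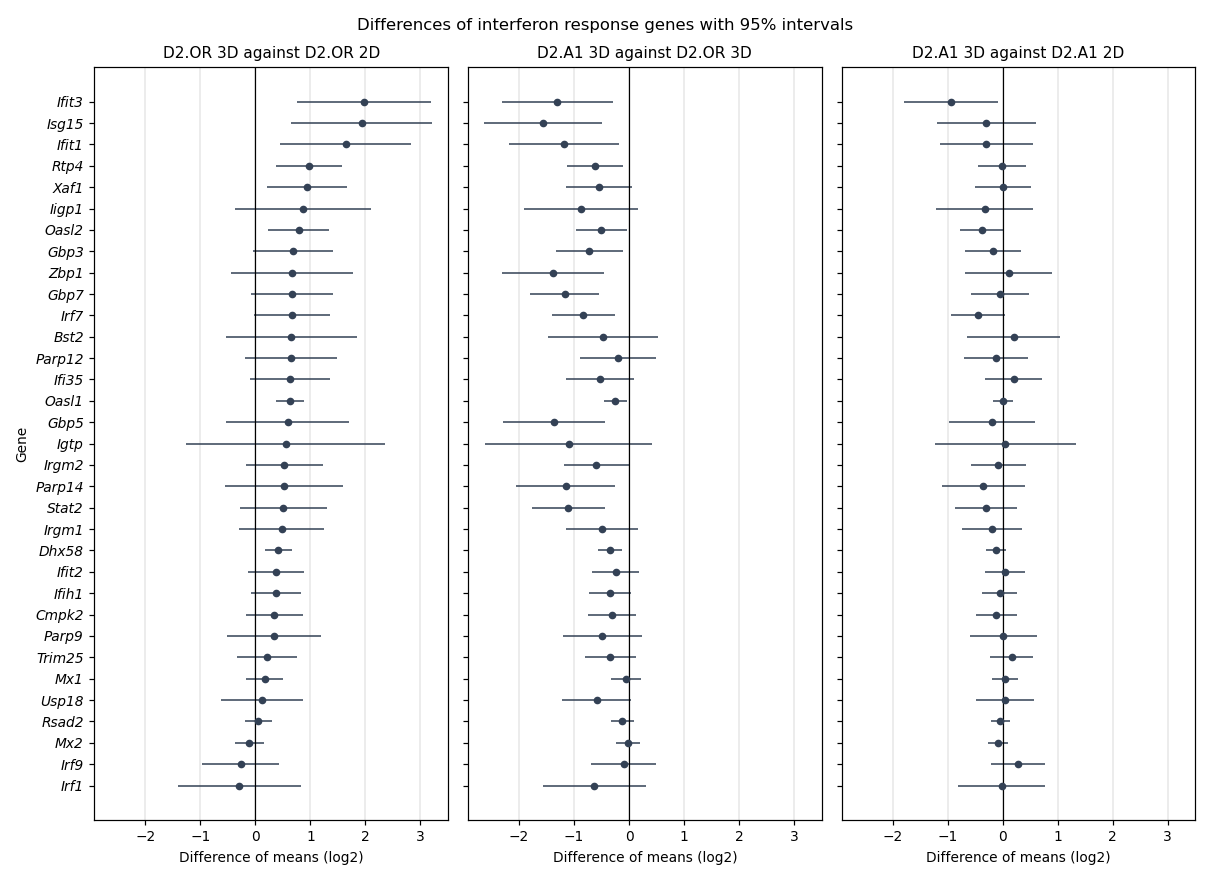
Points give each member's difference of group means on the log2 scale with its 95% interval from limma, in 3 panels for 3 comparisons. Members lay mostly above 0 for D2.OR 3D versus D2.OR 2D (30 of 33), all below 0 for D2.A1 3D versus D2.OR 3D, and around 0 for D2.A1 3D versus D2.A1 2D.

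Within D2.A1 the members differed less with priming. In D2.A1 3D versus D2.A1 2D no member passed (0.00451% of all genes were higher and 0% lower), 11 of 33 were above 0 (50% of all genes), and the median was -0.06. At an unadjusted p of 0.05 (3% of all genes higher and 2.33% lower), Ifit3 alone was lower, at 4.66 against 5.60, a difference of -0.94 (SE 0.39, adjusted p = 0.91, 95% interval -1.80 to -0.08). Irf7 (-0.45), Oasl2 (-0.38) and Parp14 (-0.35) were next in size. The nodules did not overlap for Irf7 and Isg15, both lower in D2.A1 3D (0.568% of all genes lower and 0.618% higher). The priming effect in D2.A1 minus that in D2.OR was above 0 for 3 of 33 members (48.5% of all genes) with a median of -0.60. No member passed (0.0361% of all genes were lower and 0.0586% higher), and 9 members were lower and 0 higher at an unadjusted p of 0.05 (3.64% and 4.54% of all genes). Ifit3 gave -2.92 (SE 0.68, adjusted p = 0.19), Isg15 -2.23 (SE 0.72, adjusted p = 0.40), Ifit1 -1.93 (SE 0.67, adjusted p = 0.46) and Iigp1 -1.20 (SE 0.70, adjusted p = 0.69). Without nodule 2 of D2.OR 3D, 8 members passed (0.987% of all genes): Gbp3, Ifit1, Ifit3, Irf7, Isg15, Oasl2, Parp14 and Rtp4, with Isg15 at -3.12 (adjusted p = 2.5e-05), Ifit3 at -3.43, Ifit1 at -2.72 and a median of -1.03.

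Spindle against epithelial nodules of D2.A1 gave no call among members or any gene (0% higher and 0% lower). Nodules of the same mouse could not be paired here, which can hide differences. The median member was -0.15, and 10 of 33 were above 0 (45.5% of all genes). At an unadjusted p of 0.05, Trim25 alone was lower (4.36% of all genes lower and 3.45% higher), and Parp9 alone did not overlap, lower in spindle nodules (0.807% of all genes lower and 0.577% higher). The largest differences were those of Bst2 (-0.55, SE 0.39, adjusted p = 0.78), Ifit3 (-0.54), Igtp (-0.49) and Stat2 (-0.41), each within 2 SE of 0.

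In D2.A1 2D versus D2.OR 2D the median member was 0.07 (0.03 over all genes), 18 of 33 were above 0 (56.3% of all genes), and no member passed (0.996% of all genes were higher and 3.2% lower). Members with opposite directions made up that median. Ifit3 was higher in D2.A1 2D, at 5.60 against 3.99 (log2 1.61, SE 0.50, adjusted p = 0.10), and Ifit1 differed by 0.75 (adjusted p = 0.54). Irf1 differed by -0.91 (SE 0.46, adjusted p = 0.38) and Zbp1 by -0.83 (SE 0.46, adjusted p = 0.43), and for each of them nodule 3 of D2.OR 2D lay above nodule 2. At an unadjusted p of 0.05, 3 members were higher and 1, Irf9, was lower, compared with 5.69% and 10% of all genes. The groups did not overlap for 7 members, all higher in D2.A1 2D (8.91% of all genes higher and 8.48% lower): Dhx58, Ifit1, Ifit3, Isg15, Oasl1, Oasl2 and Parp12. Without nodule 2 of D2.OR 3D, which lends its spread to this fit, Ifit3, Isg15 and Oasl2 were called higher (1.81% of all genes). Without nodule 2 of D2.OR 2D, which leaves nodule 3 alone in that group, the median was -0.03.

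Over both cultures, all D2.A1 against all D2.OR gave 1 call among the members. Gbp7 was lower in D2.A1, with a mean of the group means of 1.62 against 2.43 (log2 -0.81, SE 0.21, 1.75-fold, adjusted p = 0.045), in a comparison where 3.67% of all genes were lower and 1.52% higher. Its values overlapped only through nodule 2 of D2.OR 2D, at 1.56. Leaving out any 1 nodule but nodule 2 of D2.OR 2D or nodule 2 of D2.OR 3D lost the call (adjusted p up to 0.22, without nodule 3 of D2.OR 2D). At an unadjusted p of 0.05, 7 members were lower and 0 higher (11.1% and 6.79% of all genes), with a median of -0.28 (0.02 over all genes) and 5 members above 0 (54.8% of all genes). No member separated the lines without overlap (0.523% of all genes higher and 1.17% lower). Without nodule 2 of D2.OR 3D, 12 members were called lower (6.17% of all genes), led by Zbp1 (-1.45), Igtp (-1.42) and Gbp5 (-1.27), with Gbp7 at -0.99, a median of -0.48 and again no member without overlap. With each nodule left out in turn, the difference of Gbp7 ran from -1.08 to -0.54. When each gene was tested alone, with no shared variance, 0 members passed after adjustment in any of the 6 comparisons of groups.

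The 2 D2.OR groups split differently between their nodules. In D2.OR 2D, nodule 3 exceeded nodule 2 by at least 1 for 8 members, which held for 2.74% of all genes: Bst2 (1.61), Igtp (1.47), Irf1 (1.40), Gbp5 (1.39), Irf9 (1.13), Gbp7 (1.08), Parp14 (1.03) and Usp18 (1.02). Isg15 (-0.16), Ifit1 (-0.35), Rtp4 (-0.56) and Xaf1 (-0.34) were lower in nodule 3. In D2.OR 3D, the mean of nodules 1 and 3 exceeded nodule 2 for both kinds, by 3.42 for Igtp, 2.65 for Isg15 and 2.36 for Ifit1. These genes were named after their values were seen, and with 1 nodule on a side there is no test.

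Members were also grouped by the printed motifs. In D2.OR 2D, the 8 members with a GAS match (Bst2, Gbp5, Gbp7, Ifi35, Ifit2, Igtp, Irf1 and Irgm2) had a median nodule 3 minus nodule 2 of 1.24, between -0.05 and 1.61. The 8 members with an ISRE match and no GAS match (Gbp3, Ifih1, Ifit1, Ifit3, Irgm1, Isg15, Rsad2 and Stat2) had a median of -0.02, between -0.35 and 0.53. The 8 with neither match had a median of 0.21, between -0.34 and 1.13. The ranges overlap, with Ifit2 (-0.05) and Irgm2 (0.18) of the GAS members inside the range of the ISRE members. In D2.OR 3D, where the mean of nodules 1 and 3 was set against nodule 2, the medians were 1.32 with a GAS match, 1.37 with an ISRE match alone and 0.88 with neither. The grouping was chosen after the values were seen and was not tested.

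**Figure D4:**
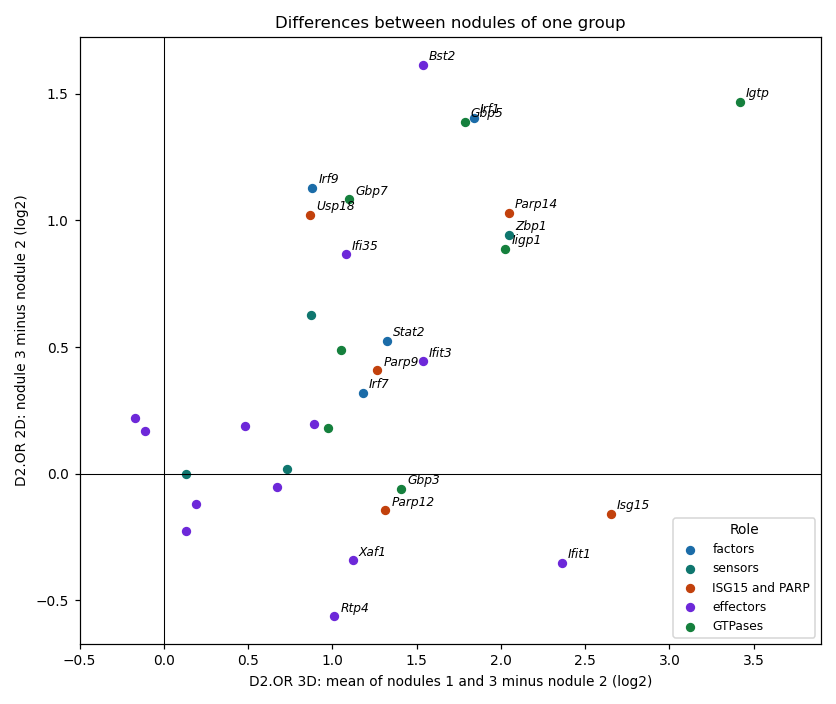
Each point is 1 member, colored by role, with the D2.OR 3D difference (mean of nodules 1 and 3 minus nodule 2, log2) on the x axis and the D2.OR 2D difference (nodule 3 minus nodule 2, log2) on the y axis. Igtp was high on both (3.42 and 1.47), whereas Isg15 (2.65 and -0.16) and Ifit1 (2.36 and -0.35) were high on the x axis alone.

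Other genes of the interferon pathway were counted from 4 further lists. Of 19 interferon genes measured (Ifnb1, Ifng and members of the alpha, epsilon, kappa and lambda families), 0 were called in any of the 7 comparisons. At an unadjusted p of 0.05 at most 2 were higher and at most 1 lower in any comparison. At that p, 3% to 6.79% of all genes were higher and 2.33% to 11.1% lower, depending on the comparison. Ifnb1 ran from 1.21 to 1.66 and Ifng from 1.45 to 1.81 over the 15 nodules, and 12 of the 19 had a mean below the median gene (1.94). Changes of such weak signals are hard to detect. The counts of the other 3 lists stand against 3.2% of all genes that fell in D2.A1 2D versus D2.OR 2D, and 3.67% that fell and 1.52% that rose over both cultures. Of 12 receptor, kinase, Stat and Socs genes, 3 fell in D2.A1 2D versus D2.OR 2D: the receptor-bound kinase Jak1 (-1.99), the type I receptor chain Ifnar2 (-1.39) and the interferon gamma receptor chain Ifngr1 (-1.30). In all D2.A1 against all D2.OR, 4 fell (Jak1 -1.30, Ifngr1 -0.96, Ifnar2 -0.92 and Il10rb -0.61) and 1 rose, the feedback inhibitor Socs3 (0.47). Of 17 nucleic acid sensing genes, 1 fell in D2.A1 2D versus D2.OR 2D (the kinase Ikbke, -1.07), a share near that of all genes, and 4 fell over both cultures (Ikbke, Irf8, Tlr9 and Unc93b1), of which Irf8, Tlr9 and Unc93b1 are best known from dendritic cells, B cells and macrophages. Of 62 other interferon-induced genes, 7 fell in D2.A1 2D versus D2.OR 2D, among them Epsti1 (-3.18), Ifi27 (-2.64), Siglec1 (-2.36), a sialic acid receptor of macrophages, and Ciita (-1.03), the master factor of MHC class II genes. Over both cultures 10 of the 62 fell. None of these 4 lists held a call in D2.OR 3D versus D2.OR 2D, in D2.A1 3D versus D2.OR 3D or within D2.A1.

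Some of the other interferon-induced genes, named after their values were seen, followed the split of D2.OR 3D. Cxcl9, a chemokine induced mainly by interferon gamma, read 5.98, 1.88 and 5.26 in D2.OR 3D and 2.03 to 3.77 in D2.A1. Cxcl10, which draws T and NK cells through the same receptor, read 5.25, 2.25 and 4.74 against 2.22 to 3.30 in D2.A1. Ifi205, of the family of cytosolic DNA-binding proteins, read 4.42, 1.77 and 3.75 against 1.35 to 1.86, and Ly6e, a surface protein, 6.94, 5.08 and 6.65 against 4.21 to 5.48. D2.OR 2D stood at 2.90 and 3.47 for Cxcl9 and at 2.62 and 2.31 for Cxcl10, within the D2.A1 range.

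Markers of host cells moved with the groups, and their part in the results was not tested. The mean of 14 macrophage and monocyte genes came to 4.24, 3.31 and 4.13 for nodules 1, 2 and 3 of D2.OR 3D, to 3.06 and 3.81 in D2.OR 2D and 3.09 to 3.68 in D2.A1, so nodules 1 and 3 of D2.OR 3D were highest, as for the interferon response genes. Adgre1 (F4/80) read 3.17, 2.20 and 3.17 in D2.OR 3D against 1.58 and 1.84 in D2.OR 2D and 1.76 to 2.10 in D2.A1, and Csf1r 4.79, 3.58 and 4.16 against 3.23 and 4.68 and 3.02 to 3.99. None of the 14 was called in D2.OR 3D versus D2.OR 2D. At an unadjusted p of 0.05, 5 were higher and 0 lower (4.15% and 5.24% of all genes). In D2.A1 3D versus D2.OR 3D, 1 of the 14 fell (0.252% of all genes). The mean of 10 alveolar and airway genes was 5.37, 4.80 and 5.92 in D2.OR 3D, 2.70 and 2.42 in D2.OR 2D and 2.73 to 4.64 in D2.A1, with 2 of 10 called higher in D2.OR 3D than D2.OR 2D (0.0721% of all genes) and 1 of 10 lower in D2.A1 3D than D2.OR 3D. Sftpc, the surfactant gene of alveolar type II cells, read 10.25, 8.09 and 10.75 in D2.OR 3D and 4.88 to 8.74 in D2.A1. The mean of 7 epithelial genes was 3.43, 2.68 and 3.44 in D2.OR 3D, within the D2.A1 range of 2.35 to 3.46. It was 2.26 to 2.36 in D2.OR 2D, and Epcam lay at 1.55 to 2.10 in all 15 nodules. The mean of 7 mesenchymal genes (such as Vim and Fn1) was also lower in nodule 2 of D2.OR 3D, at 5.45, 4.35 and 5.54 in nodules 1, 2 and 3. It stood at 3.91 and 4.03 in D2.OR 2D and at 5.55 to 6.39 in D2.A1, with 5 of 7 called higher and 1 lower in D2.A1 2D versus D2.OR 2D (0.996% and 3.2% of all genes).

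Lymphocyte markers were highest in nodule 3 of D2.OR 2D instead. The mean of 14 T and NK cell genes reached 2.87 and 4.24 for nodules 2 and 3 of D2.OR 2D, 2.60, 2.30 and 2.72 in D2.OR 3D and 1.92 to 2.12 in D2.A1. That of 9 B and plasma cell genes was 3.61 and 4.87, against 2.98, 3.73 and 2.65 and against 1.85 to 2.13. That of 6 plasmacytoid dendritic cell genes, the cell type best known for making type I interferon, was 2.49 and 3.75, against 2.44, 3.02 and 2.49 and against 1.92 to 2.19. The median of these 6 genes was 2.11 in nodule 2 of D2.OR 3D, below 2.18 and 2.26 in nodules 1 and 3. The mean of 3.02 in that nodule thus does not hold for the list as a whole. Nodule 3 of D2.OR 2D, which exceeded every D2.A1 nodule for Irf1, Bst2, Igtp, Gbp5, Gbp7 and other members, was also highest of all nodules for Cd3e (5.45), Cd79a (5.87) and Siglech (4.51). Of these lists, 8 of 14 T and NK, 9 of 9 B and plasma and 2 of 6 plasmacytoid dendritic cell genes fell in D2.A1 2D versus D2.OR 2D, against 3.2% of all genes. The mean of 9 neutrophil genes lay between 1.67 and 2.11 in all nodules, with S100a8 at 1.56 to 2.29. The mean of 10 vessel genes was 2.96 to 3.38 in D2.OR 2D. It was 2.67 to 2.91 in D2.OR 3D and 2.24 to 2.80 in D2.A1, which overlap. Pecam1, 1 gene of that list, read 5.11 and 5.27 in D2.OR 2D, 3.98 to 4.39 in D2.OR 3D and 2.99 to 3.88 in D2.A1. The mean of 7 fat cell genes was 7.28 and 4.10 in D2.OR 2D, 4.15, 4.30 and 2.71 in D2.OR 3D and 1.69 to 1.98 in D2.A1, with 5 of 7 called lower in D2.A1 2D versus D2.OR 2D, and Adipoq was highest in nodule 2 of D2.OR 2D (5.14). RNA of host cells was thus present in the captured nodules, and which cells carried the interferon response genes was not measured.

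**Figure D5:**
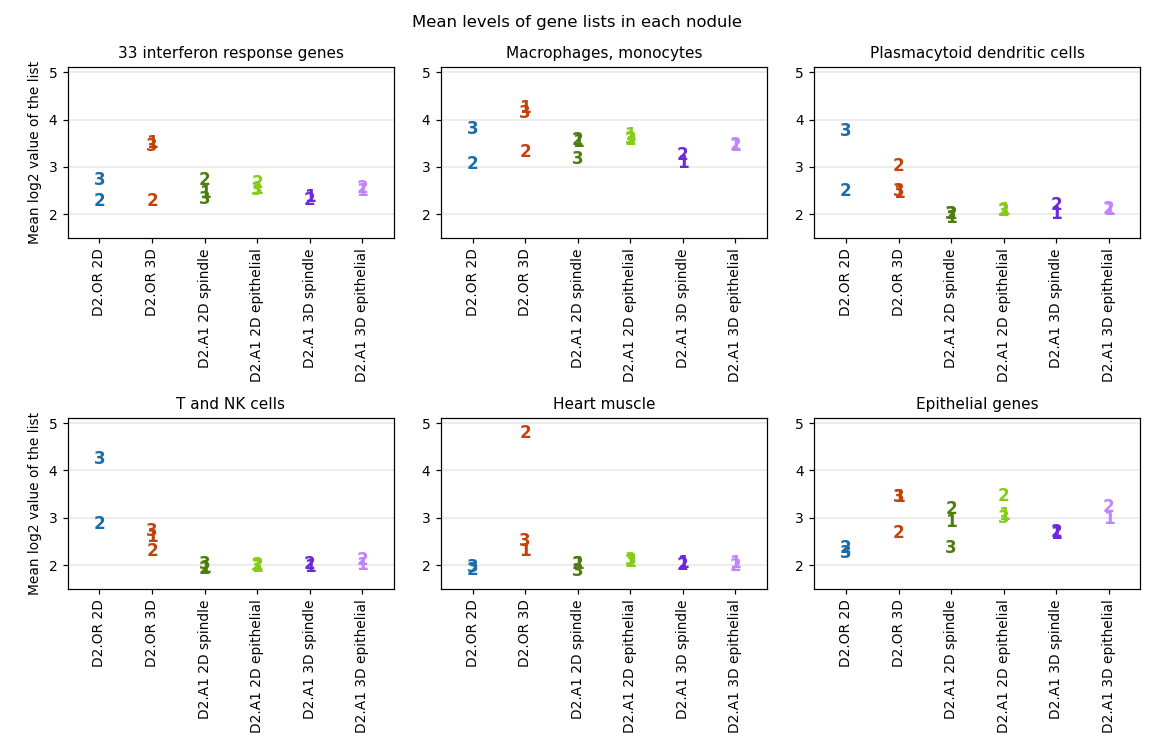
Each panel gives the mean log2 value of a gene list in each nodule, drawn as its number, over the 6 groups, with the same y axis in all panels. Nodules 1 and 3 of D2.OR 3D were high for the 33 members (3.51 and 3.45) and the macrophage list (4.24 and 4.13), nodule 3 of D2.OR 2D for the T and NK list (4.24), and nodule 2 of D2.OR 3D for heart muscle (4.79).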

How the data were processed

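RNA of 15 laser-microdissected nodules was measured on 15 arrays. The authors normalized probe intensities by RMA in Affymetrix Expression Console and used the Transcriptome Analysis Console, with versions not given in the sources used here. Each transcript cluster has 1 deposited log2 value per nodule. Base 2 is assumed because RMA returns it. RMA removes a shift shared by most genes and compresses differences between weak signals. Of 41345 transcript clusters, the platform table assigns 23521 to 1 gene, 1820 to several and 16004 to none, and only the first kind was used, which left 22180 genes. Cgas and Sting1 were matched through an older symbol. Weak signals were kept. No array duplicated another, and correlations between arrays ran from 0.855 to 0.969.

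Groups followed the sample titles. R 4.3.3 and limma 3.58.1 fitted a mean for every group to the 15 arrays with moderated variances (9 residual and 3.20 prior degrees of freedom), giving 7 comparisons, each adjusted by Benjamini-Hochberg over 22180 genes. The variance is shared, so small groups rest partly on the spread seen elsewhere. The number of arrays limits the precision. The fit was tested on simulated data in which a gene had the same spread in every group. Members spread more widely in D2.OR 3D than elsewhere, so the simulation does not show how the fit behaves there.

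The members and lists were chosen with earlier results of these data known. Genes named are the members past the threshold, at most 10 per comparison, or, where none passed, the 4 with the largest difference. Of the other interferon lists they are the called genes, at most 4, and of cell type lists fixed markers. Members called without nodule 2 of D2.OR 3D are named beyond this rule, as are genes said to be named after their values were seen. Alternatives were all transcript clusters, the mean of a gene's clusters, a filter at the median gene, a trended and robust variance prior, array weights, only the groups compared, a one-way test, cyclic loess, the replicate number as a block or random effect, nodules of a number averaged, and each array left out. Whether the numbers in the titles pair nodules could not be decided. Of 31 pairs of nodules with the same number in different groups, 8 had deviations correlated above 0.1 (median r = -0.01). Most of these pairs join different lines or cultures and so different mice. Spindle and epithelial nodules of the same number and culture in D2.A1 gave r of -0.01, -0.03 and 0.17 in 2D and -0.09 for each pair in 3D. In groups of 2 nodules the deviations mirror each other, so pairing is not excluded. Other experiments of the study were not used here.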

Additional observations from a re-analysis of the deposited data

Results flagged for a closer look

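Isg15 was the 1 member whose primed and unprimed nodules moved in opposite directions without overlap in the lines. It was picked after the values of all members were seen. The share of all genes that meet both rules at once was not counted, so whether 1 such member is unusual cannot be told. Taken alone, 10.7% of all genes were higher without overlap in D2.OR 3D than in D2.OR 2D. For D2.A1, 0.568% of all genes were lower without overlap in 3D than in 2D. All 3 nodules of D2.OR 3D (4.49, 1.99 and 4.81) lay above both of D2.OR 2D (1.91 and 1.75), while all 4 nodules of D2.A1 3D (2.04 to 2.29) lay below all 6 of D2.A1 2D (2.32 to 2.93). The priming effect in D2.A1 minus that in D2.OR was -2.23 on the log2 scale (SE 0.72), which did not pass in limma (adjusted p = 0.40) and passed without nodule 2 of D2.OR 3D (-3.12, adjusted p = 2.5e-05). With nodule 2 of D2.OR 3D the separation of the D2.OR groups was 0.08.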

How the results depend on the processing

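The median difference for D2.A1 2D versus D2.OR 2D (0.07) was -0.03 without nodule 2 of D2.OR 2D, and no other median or named member changed direction under any setting. Array weights moved the counts of members called to 3 for D2.OR 3D versus D2.OR 2D (0.505% of all genes higher). For D2.A1 3D versus D2.OR 3D the count was 20 (3.3% of all genes lower). For the lines over both cultures it was 7 (5.71% of all genes lower, against 3.67% in the main fit). For the difference of the priming effect it was 1 (Isg15, 0.162% of all genes lower). With cyclic loess the counts were 1 for D2.OR 3D versus D2.OR 2D (Oasl1) and 1 for D2.A1 2D versus D2.OR 2D (Ifit3). They were 2 for the lines over both cultures and 1 for the priming effect (Ifit3). No share of all genes is given for cyclic loess, so these counts alone do not set the members apart from other genes. For the lines over both cultures (1 member, Gbp7), the count was 2 with the trended and robust prior and 0 over all transcript clusters, with the number as a random effect, with nodules of a number averaged and with a one-way test. With only genes above the median gene it was 1, but the member called was Zbp1, since Gbp7 is weaker than that gene. With each array left out the counts ran from 0 to 11 for D2.OR 3D versus D2.OR 2D, 0 to 3 for D2.A1 2D versus D2.OR 2D, 0 to 14 for D2.A1 3D versus D2.OR 3D, 0 to 12 for the lines over both cultures, 0 to 8 for the priming effect and 0 to 0 within D2.A1. The highest counts came without nodule 2 of D2.OR 3D, where the share of all genes called in the same direction was higher as well. For D2.OR 3D versus D2.OR 2D that share was 1.73%, against 0.0721% with all nodules. Median differences ran from 0.24 to 0.99 for D2.OR 3D versus D2.OR 2D, from -1.03 to -0.37 for the priming effect, from -0.92 to -0.32 for D2.A1 3D versus D2.OR 3D and from -0.48 to -0.13 for the lines over both cultures, the larger sizes again without nodule 2 of D2.OR 3D. A replicate block left 0 members called for D2.OR 3D versus D2.OR 2D (median 0.48) and kept the call of Gbp7, and it changed no other call of a member. Among single members, the settings other than leaving out an array kept 246 calls or missed calls, gained 10 and lost 4. Weak signal is a limit for the 24 of 33 members with a mean under 3. The cause of these changes was not tested.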
